A study of Mus musculus with 12 samples.

Results

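Chloride, bicarbonate and potassium transport in the mouse colon was examined through 10 genes: the cotransporters Slc12a2 and Slc4a4, the potassium channel subunits Kcnq1 and Kcne3, the anion channels Cftr, Clcn2, Ano1 and Best2, and the anion exchangers Slc26a3 and Slc26a6. They were chosen by symbol, and all 10 were found among the 23420 symbols of each count file. Confluent epithelial monolayers at day 3, day 4 and day 5 (3 libraries each) were compared with isolated colonic crypts (3 libraries). All 12 libraries came from wild-type (WT) mouse colon. Per the labels, the crypts of a WT mouse aged 6 to 10 weeks were first grown on collagen, and the cells were then replated on scaffolds with graded cross-linking until the monolayer was contiguous. The monolayer was lysed whole, so its libraries also hold any non-epithelial cells that the culture kept. Electrical resistance across the sheet, as written in the sample labels, was 526 ± 56 ohm cm2 on day 3. It was 623 ± 15 ohm cm2 on day 4 and 407 ± 53 ohm cm2 on day 5, and the labels do not name the error. The stated question was how monolayers made in vitro compare with colonic tissue.

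Colonic epithelium moves fluid by moving ions. In secretion, the basolateral membrane loads chloride through the sodium-potassium-chloride cotransporter and bicarbonate through the sodium-bicarbonate cotransporter, potassium channels in the same membrane keep the cell negative inside, and apical channels, above all the cystic fibrosis channel, let the anion out. In absorption, surface cells take chloride up from the lumen in exchange for bicarbonate through SLC26 exchangers. Secretory channels are typical of the lower crypt, and the main chloride exchanger is typical of the surface.

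The promoters of 3 of the genes are shown because these genes took different courses: Cftr stepped down from day to day, Slc26a3 was highest on the last day, and Ano1 was not called over the 3 days together. The windows come from the RefSeq promoter table for GRCm38.p6, run from 250 bases before to 50 bases after the annotated start, and are written 5′ to 3′ on the gene's strand. Capitals mark a TATA box (TATAAA) or a GC box (GGGCGG), searched on both strands.
Cftr, chr6:18170437-18170736, forward strand: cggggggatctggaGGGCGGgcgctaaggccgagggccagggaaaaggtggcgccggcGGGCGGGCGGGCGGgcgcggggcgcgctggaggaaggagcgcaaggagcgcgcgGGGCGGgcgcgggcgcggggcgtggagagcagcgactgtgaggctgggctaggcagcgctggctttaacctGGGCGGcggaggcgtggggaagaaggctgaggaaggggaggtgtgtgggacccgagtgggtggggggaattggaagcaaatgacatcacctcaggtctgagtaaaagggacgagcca
Slc26a3, chr12:31437969-31438268, forward strand: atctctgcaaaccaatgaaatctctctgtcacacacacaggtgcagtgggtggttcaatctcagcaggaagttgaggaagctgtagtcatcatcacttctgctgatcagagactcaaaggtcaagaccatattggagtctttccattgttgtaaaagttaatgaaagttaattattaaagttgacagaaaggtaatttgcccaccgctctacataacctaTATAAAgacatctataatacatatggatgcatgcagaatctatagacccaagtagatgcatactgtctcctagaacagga
Ano1, chr7:144738524-144738823, reverse strand: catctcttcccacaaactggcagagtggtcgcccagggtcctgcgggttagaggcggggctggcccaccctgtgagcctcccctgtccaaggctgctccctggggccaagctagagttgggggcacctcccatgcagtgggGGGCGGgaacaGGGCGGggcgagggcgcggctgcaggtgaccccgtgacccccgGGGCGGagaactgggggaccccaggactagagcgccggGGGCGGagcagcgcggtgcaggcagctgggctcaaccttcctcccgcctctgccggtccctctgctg
The Cftr window had 71.3% G and C and 6 GC boxes, of which 3 overlap by sharing bases in a single repeat. Slc26a3 had 39.3% G and C, no GC box and a TATA box that begins 30 bases before the start. In the Ano1 window there were 71.7% G and C and 4 GC boxes. Over all 32851 promoters in the table the median content was 52.7% G and C (quartiles 45.7 and 61.7%). A GC box was found in 35.7% of these promoters and a TATA box in 13.6%. The letters of a cAMP response element (TGACGTCA, in 1.79% of promoters), of HNF4 (CAAAGTCCA, 0.475%), of CDX (TTTATTG, 4.6%) and of AP-1 (TGANTCA, 7.81%) were absent from these 3 windows. A match describes letters in a window and was not tested as a binding site. The table matched 7 of the 10 genes, and Best2, Kcnq1 and Slc12a2 are named only.

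Levels are given as CPM (read counts divided by library size) scaled by TMM factors, as mean ± SD over 3 libraries of a day or of crypts, or 9 monolayer libraries. Total gene counts ran between 4518314 and 14290393 per library. Changes are log2 fold changes ± SE from edgeR's quasi-likelihood test, and a call is an adjusted p under 0.05 over the 12863 genes that passed a filter on low counts. Of the 10 genes 9 passed it, and Slc26a6 did not. Nothing in the labels ties the replicates to separate animals or cultures, so p-values reflect only the spread among these samples, which may be technical. Day 5 replicate 1 stood apart from the other day 5 libraries, with 12293 genes detected where the richest library had 15250. In these bulk libraries, fewer cells of a type and less RNA per cell cannot be told apart. All comparisons with crypts use the same 3 crypt libraries.

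Monolayers had lower levels of the potassium channel subunits, most anion channels and the main exchanger, and the basolateral cotransporters were not called over the 3 days together. Of the 9 genes tested, 6 were called lower than in crypts (Cftr, Clcn2, Best2, Slc26a3, Kcnq1 and Kcne3), none was higher and 3 were not called (Ano1, Slc4a4 and Slc12a2). Over all genes tested 32.8% were called lower, 30.7% higher and 63.5% in either direction, so 6 of 9 called lies near that background, with all 6 in the same direction. The median log2 fold change of all genes was -0.026. The same 6 genes were lower on each day taken alone. Beside them 2 genes were called higher at day 3 (Ano1 and Slc12a2), against 56.3% of all genes called, 27.9% lower and 28.4% higher. At day 4 and again at day 5 1 gene was called higher (Slc4a4). The background was 57.1% called at day 4 (28.4% lower and 28.7% higher) and 57.3% at day 5 (28.9% lower and 28.4% higher).

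**Figure D1:**
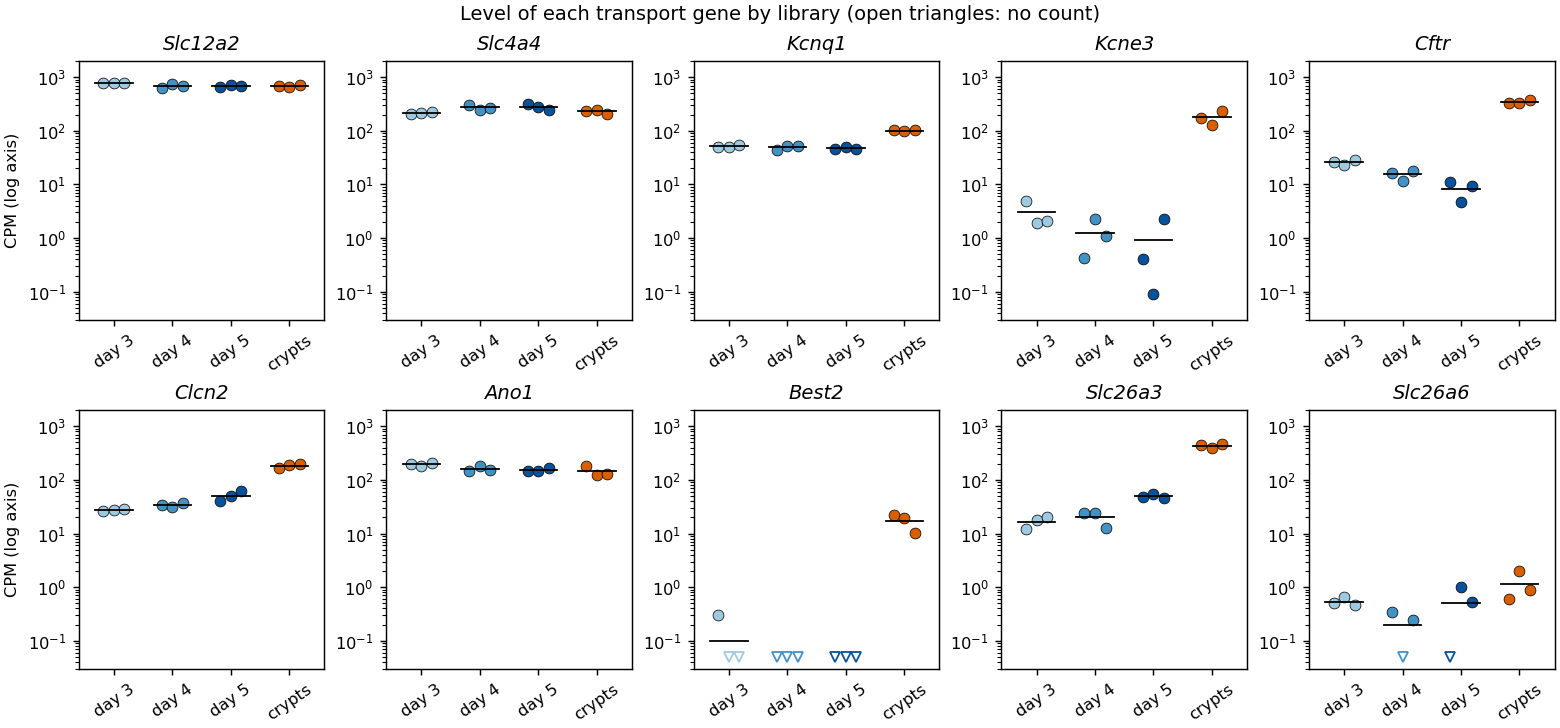
Level of each of the 10 genes in every library, in CPM on a log axis, with day 3, day 4 and day 5 monolayers left of crypts; points are libraries, bars are group means and open triangles mark libraries without a count. Slc12a2 lies between 636 and 794 CPM in all 12 libraries, whereas every Cftr, Slc26a3 and Kcne3 point of the monolayers lies below those of crypts.

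Slc12a2, the sodium-potassium-chloride cotransporter NKCC1 that loads chloride across the basolateral membrane, had the most reads of the 10 genes. It had 770, 772 and 794 CPM in the day 3 monolayers, 636, 750 and 693 CPM at day 4, 656, 724 and 684 CPM at day 5, and 672, 663 and 712 CPM in crypts. All day 3 libraries lay above all libraries of day 4, day 5 and crypts, and those 3 groups overlapped. Monolayers were not called against crypts (0.07 ± 0.07, edgeR adjusted p = 0.332), and the 95% interval of the log2 fold change ran from -0.06 to 0.21. The day 3 difference just passed (0.19 ± 0.08, edgeR adjusted p = 0.0489). That call was lost in DESeq2 (0.16, adjusted p = 0.0544), with library totals in place of TMM factors (0.02, edgeR adjusted p = 0.87), without the filter, with only day 3 and crypts in the fit, and when any 1 of 6 libraries was left out.

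Slc4a4, the electrogenic sodium-bicarbonate cotransporter NBCe1, imports bicarbonate on the basolateral side. Its level was 204, 219 and 228 CPM at day 3, 302, 247 and 271 CPM at day 4, 310, 273 and 247 CPM at day 5, and 238, 242 and 210 CPM in crypts. Every day 4 and day 5 library was above every crypt library, and day 3 overlapped with crypts. Over the 3 days the gene was not called (0.14 ± 0.08, edgeR adjusted p = 0.139, 95% interval -0.03 to 0.32). It was called 1.19-fold higher at day 4 (0.25 ± 0.10, edgeR adjusted p = 0.0413) and 1.2-fold higher at day 5 (0.27 ± 0.10, edgeR adjusted p = 0.0321). Neither call held in DESeq2 (0.22 and 0.23, adjusted p = 0.0723 and 0.0554), with only the day and crypts in the fit (0.25 and 0.26, edgeR adjusted p = 0.0628 and 0.0778) or with library totals (0.08 and 0.06, edgeR adjusted p = 0.486 and 0.608), where day 3 was instead called lower (-0.25, edgeR adjusted p = 0.0236). Leaving out 1 library also ended them: day 4 replicate 1, day 4 replicate 3 or crypts replicate 3 for day 4, and day 5 replicate 1, day 5 replicate 2 or crypts replicate 3 for day 5.

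The 2 subunits of the basolateral potassium channel were unequally reduced. Kcnq1, the pore subunit, had 51, 49.4 and 55.2 CPM at day 3, 44.4, 51.5 and 52.3 CPM at day 4, 46.2, 49.4 and 45.4 CPM at day 5, and 103, 97.2 and 102 CPM in crypts. Monolayers thus held 49% of the crypt level, with no overlap and little spread (-1.03 ± 0.08, edgeR adjusted p = 4.19e-09). Between monolayer days it was not called (day 5 against day 3, -0.14 ± 0.11, edgeR adjusted p = 0.41). In GENCODE M21, 2.96% of the Kcnq1 exon length is overlapped by the antisense gene Kcnq1ot1 on the opposite strand, and since no source here states how strand was handled in counting, reads there cannot be told apart. Kcnq1ot1 itself was at 98.3 ± 12.5 CPM in monolayers and 81.4 ± 29.1 CPM in crypts (0.29 ± 0.15, edgeR adjusted p = 0.102).

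Kcne3 encodes the β-subunit that keeps this channel open at rest and in cAMP-driven secretion. Counts in its row gave 4.99, 1.94 and 2.12 CPM at day 3, 0.431, 2.24 and 1.09 CPM at day 4, 0.403, 0.0897 and 2.25 CPM at day 5, and 172, 128 and 237 CPM in crypts. All 9 monolayer libraries lay far below all crypts. The monolayers had 159 reads against 4464 in crypts, a pooled level lower by a ratio of 106 (90.4 to 125, counting error only). In the fit, which averages the log2 changes of the 3 days, it was at 0.787% of the crypt level (-6.99 ± 0.29, edgeR adjusted p = 2.63e-13). Without day 5 replicate 3 the fitted change was -7.63. Against crypts the log2 fold change was -5.95 ± 0.41 at day 3, -7.15 ± 0.46 at day 4 and -7.87 ± 0.52 at day 5 (edgeR adjusted p = 4.77e-10, 2.02e-10 and 3.01e-10), the day 4 value was -7.94 without replicate 2 of that day, and the day 5 value was -9.80 without replicate 3 of that day. Day 5 against day 3 was not called (-1.93 ± 0.71, edgeR adjusted p = 0.0632). It was called without day 5 replicate 3 (-3.86, edgeR adjusted p = 0.00791), without crypts replicate 2 (edgeR adjusted p = 0.0385) and without the filter (edgeR adjusted p = 9.03e-07).

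As a ratio of CPM, the balance of the 2 subunits within a library cancels the library total and its scaling. The log2 ratio that was tested adds a prior count, which weighs where Kcne3 reads are few (1 read in day 5 replicate 2). Kcne3 over Kcnq1, as a ratio of CPM, was 0.0978, 0.0392 and 0.0384 at day 3, 0.00969, 0.0436 and 0.0208 on day 4, 0.00873, 0.00181 and 0.0496 on day 5, and 1.66, 1.32 and 2.32 in crypts. No monolayer ratio came near a crypt ratio. With a prior count of 2 the log2 ratio was -5.12 ± 1.26 in monolayers and 0.78 ± 0.41 in crypts, a difference of -5.90 (two-sided exact permutation test over 220 splits, p = 0.00455, the smallest these splits can give; adjusted p = 0.0136 over 3 ratios). Without crypts replicate 1 or crypts replicate 3 the adjusted p was 0.0545 (differences of -5.93 and -5.68), where fewer splits remain.

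Among apical channels, Cftr showed a stepwise course. Cftr, the cAMP-regulated chloride and bicarbonate channel that is mutated in cystic fibrosis, had 26.7, 23.1 and 28.8 CPM at day 3, 16.6, 11.7 and 18 CPM at day 4, 11.1, 4.75 and 9.19 CPM at day 5, and 329, 331 and 378 CPM in crypts. Each day lay wholly below the day before it, and crypts lay far above all of them. In monolayers the gene was at 4.23% of its crypt level (-4.56 ± 0.13, edgeR adjusted p = 1.6e-15). By day the share was 7.57% at day 3 (-3.72 ± 0.19, edgeR adjusted p = 5.39e-12), 4.45% at day 4 (-4.49 ± 0.20, edgeR adjusted p = 9.75e-13) and 2.25% at day 5 (-5.48 ± 0.22, edgeR adjusted p = 3.14e-13). An antisense gene, Gm15592, overlaps 1.66% of the Cftr exon length on the opposite strand.

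Clcn2, a chloride channel of the ClC family that lies basolaterally in colonic surface cells, differed between days in the other direction. It had 26.7, 27.7 and 28.6 CPM at day 3, 33.6, 31.2 and 36.8 CPM at day 4, 40.3, 49.9 and 63.1 CPM at day 5, and 167, 192 and 197 CPM in crypts. The days did not overlap with each other, and all stayed below crypts. The gene was at 19.6% of the crypt level over all days (-2.35 ± 0.10, edgeR adjusted p = 2.91e-13), at 14.9% at day 3 (-2.74 ± 0.14) and at 27.6% at day 5 (-1.86 ± 0.14, edgeR adjusted p = 1.55e-09). Day 4 against day 3 was not called for it (0.29 ± 0.14, edgeR adjusted p = 0.378). Fam131a and Polr2h overlap 2.77% of its exon length on the opposite strand.

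Ano1, the calcium-activated chloride channel TMEM16A, was not called lower on any day. Its level was 201, 184 and 210 CPM at day 3, 146, 181 and 156 CPM at day 4, 144, 145 and 166 CPM at day 5, and 183, 123 and 129 CPM in crypts. Crypts replicate 1 was high among the crypts and fell within the range of the monolayers, so the groups overlapped on day 4 and day 5. Over all days the gene was not called (0.23 ± 0.11, edgeR adjusted p = 0.0712, 95% interval 0.00 to 0.46), but it was without crypts replicate 1 (0.43, edgeR adjusted p = 0.000758) and without the filter (0.24, edgeR adjusted p = 0.0178). At day 3 it was called 1.37-fold higher than in crypts (0.46 ± 0.13, edgeR adjusted p = 0.00549), which was lost with library totals (0.29, edgeR adjusted p = 0.0871). Day 4 and day 5 were called only without crypts replicate 1 (0.36 and 0.27, edgeR adjusted p = 0.00925 and 0.044). Ano1 also marks interstitial cells of Cajal, the pacemaker cells of gut muscle. The summed level of 4 genes of these cells (Kit, Etv1, Thbs4 and Edn3) was 57.4 to 186 CPM in monolayers and 298 to 398 CPM in crypts. Of the 3 tested, 2 were lower. Thbs4 held most of the sum, at 101 ± 47.8 CPM in monolayers and 224 ± 27.9 CPM in crypts. Etv1 had 2 reads in monolayers and 10 in crypts, and Edn3 was not called. Kit had between 3 and 5 counts on each monolayer day and 125 ± 28.5 CPM in crypts. In the same crypts the muscle genes Actg2, Acta2 and Cnn1 had no count. Which cells the Kit reads came from was not tested, nor was the part of interstitial cells of Cajal in the Ano1 levels.

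Best2, bestrophin 2, is an anion channel placed in goblet cells of the mouse colon, where it is linked to bicarbonate release. It had 0.3 CPM in day 3 replicate 1 and no count in the other 8 monolayer libraries, against 21.8, 19.3 and 10.2 CPM in crypts. The 3 reads of the monolayers stood against 370 in crypts, so pooled levels were lower by a ratio of 465 (exact 95% interval 158 to 2270). At day 3 the ratio was 193 (65.5 to 940). With no count at day 4 and day 5, the gene was at least 159-fold lower at day 4 and at least 114-fold lower at day 5 (bounds that set the group's pooled reads to 3). These intervals and bounds hold counting error alone. It was called lower (edgeR adjusted p = 1.18e-08). Goblet cell markers moved with it: 6 of 6 were lower, their summed level was 16.5 to 78.6 CPM in monolayers and 30200 to 39400 CPM in crypts, and none was at 0 across the monolayers. Their part in the result was not tested.

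Of the exchangers, Slc26a3 (DRA, the main apical chloride-bicarbonate exchanger of the colon) was lower than in crypts on every day and highest among the days on day 5. Its level was 12.1, 17.6 and 19.9 CPM at day 3, 23.7, 23.7 and 12.6 CPM at day 4, 48.2, 54.2 and 46.5 CPM at day 5, and 448, 390 and 464 CPM in crypts. Day 3 and day 4 overlapped, day 5 lay above both, and all monolayers lay below crypts. It was at 3.84% of the crypt level at day 3 (-4.70 ± 0.20, edgeR adjusted p = 5.08e-13), 4.67% at day 4 (-4.42 ± 0.20, edgeR adjusted p = 1.12e-12) and 11.5% at day 5 (-3.12 ± 0.18, edgeR adjusted p = 6.46e-11). Of the other markers of surface colonocytes, all 5 were lower over the 3 days together. Their summed level was 61.6 to 76.1 CPM at day 3 and 86.3 to 149 CPM at day 4. It was 287 to 318 CPM at day 5 and 2990 to 3500 CPM in crypts. Krt20 (175 ± 18.3 CPM) and Ceacam20 (126 ± 13.7 CPM) held most of the day 5 sum. Ceacam20 was at 120 ± 18.2 CPM in crypts and was not called at day 5 (0.07 ± 0.15, edgeR adjusted p = 0.687). Aqp8 was at 0.165 ± 0.0304 CPM at day 3, 1.22 ± 0.542 CPM at day 4 and 0.753 ± 0.573 CPM at day 5. Car4, the surface carbonic anhydrase, had no count at day 3 or day 4 and 6 counts at day 5. The part of these cells in the result was not tested.

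Slc26a6, the apical exchanger PAT1, was close to the limit of detection everywhere. It had 0.499, 0.646 and 0.455 CPM at day 3, 0.345, 0 and 0.242 CPM at day 4, 0, 0.986 and 0.52 CPM at day 5, and 0.601, 1.96 and 0.902 CPM in crypts. Day 3 and day 5 overlapped with crypts, and all day 4 libraries lay below all of day 3 and all crypts. In all there were 40 reads in monolayers and 28 in crypts, a pooled level lower by a ratio of 2.64 (1.57 to 4.39, counting error only). In a fit without the filter, an alternative added after the data were seen, it was not called (-1.55 ± 0.99, edgeR adjusted p = 0.194 over 18195 genes).

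**Figure D2:**
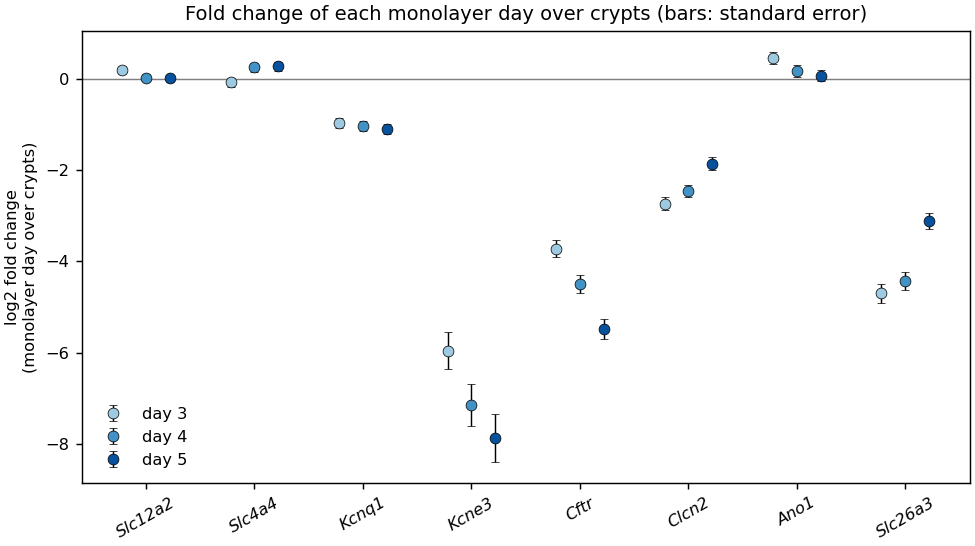
Log2 fold change of each monolayer day over crypts for 8 of the genes, with bars of ± 1 SE. Best2, with 3 reads in all monolayers, and Slc26a6, which did not pass the filter, are left out. Slc12a2, Slc4a4 and Ano1 lie near 0 on all days, Cftr moves away from 0 between day 3 (-3.72) and day 5 (-5.48), and Slc26a3 moves toward it (-4.70 and -3.12).

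Within the monolayers, the genes differed between days in both directions. At day 5 against day 3, of the 9 genes tested, 2 were called lower (Cftr and Ano1) and 3 higher (Slc26a3, Clcn2 and Slc4a4), against 10.5% lower, 9.9% higher and 20.4% in all over the genes tested. Cftr was 3.37-fold lower at day 5 than at day 3 (-1.75 ± 0.22, edgeR adjusted p = 1.4e-05). Slc26a3 was 2.99-fold higher (1.58 ± 0.19, edgeR adjusted p = 8.55e-06), and Clcn2 was 1.85-fold higher (0.89 ± 0.14, edgeR adjusted p = 0.000147). These 3 calls held under all alternatives run. The smaller steps of Slc4a4 (0.35 ± 0.10, edgeR adjusted p = 0.0192) and Ano1 (-0.39 ± 0.13, edgeR adjusted p = 0.0404) did not: Slc4a4 was not called without day 3 replicate 1, day 3 replicate 2 or day 5 replicate 1, nor Ano1 without any 1 day 3 library, day 4 replicate 3, or day 5 replicate 1 or 2.

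Fewer of the genes were called between adjoining days. At day 5 against day 4, 1 gene was lower (Cftr, -0.99 ± 0.23, edgeR adjusted p = 0.0118) and 2 were higher (Slc26a3, 1.30 ± 0.19, edgeR adjusted p = 0.000237; Clcn2, 0.60 ± 0.14, edgeR adjusted p = 0.0115), against 7.56% of all genes called (4.2% lower and 3.36% higher). At day 4 against day 3, 1 gene was called, Cftr (-0.77 ± 0.19, edgeR adjusted p = 0.036), against 2.77% of all genes called (1.17% lower and 1.59% higher). The Cftr step to day 4 was lost without any 1 day 3 library and without day 4 replicate 1 or 2 (-0.60 to -0.85), and its step to day 5 without day 4 replicate 3 (-0.87), without day 5 replicate 2 (-0.61) and with only the 2 days in the fit (-0.93, edgeR adjusted p = 0.0829). Clcn2 at day 5 against day 4 was lost without day 4 replicate 2 (0.54) or day 5 replicate 3 (0.42). Beside the lower Cftr, the summed level of stem and cycling cell markers was 488 to 665 CPM at day 3 and 315 to 473 CPM at day 4. It was 44.5 to 52.8 CPM at day 5 and 1160 to 1430 CPM in crypts, with 4 of 4 lower over the 3 days together. The cycling markers Mki67 and Top2a held most of this sum. At day 5 against day 3, Mki67, Top2a and Lgr5 were called lower. Smoc2 was called higher (4.48 ± 1.16, edgeR adjusted p = 0.00954), with 22 reads at day 5 and 1 at day 3. Its day 5 libraries had 0, 1.79 and 0.347 CPM, so most of these reads came from replicate 2. The Smoc2 call was not refitted under the alternatives. Markers of deep crypt secretory cells had 0.861 to 5.45 CPM in monolayers and 1070 to 2440 CPM in crypts, with 3 of 3 lower and Retnlb at 0 in all monolayers. Their part in the Cftr levels was not tested.

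The balance of exchanger and channel within a library differed by day. Slc26a3 over Cftr, as a ratio of CPM, was 0.453, 0.761 and 0.692 at day 3, 1.42, 2.03 and 0.698 on day 4, 4.35, 11.4 and 5.06 on day 5, and 1.36, 1.18 and 1.23 in crypts. Day 3 lay below the crypts, day 4 on both sides of them and day 5 above. Averaged over all monolayers the log2 ratio was 0.76 ± 1.57 against 0.33 ± 0.11 in crypts, a difference of 0.43 that did not pass (two-sided exact permutation test, p = 0.664, adjusted p = 0.664). For Slc26a3 over Slc26a6 the log2 ratio was 5.53 ± 1.20 in monolayers and 8.43 ± 0.84 in crypts (difference -2.90, two-sided exact permutation test, p = 0.00909, adjusted p = 0.0136). With so few Slc26a6 reads that call depended on the prior count, and with 0.5 in place of 2 it was lost (-2.38, adjusted p = 0.0886).

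**Figure D3:**
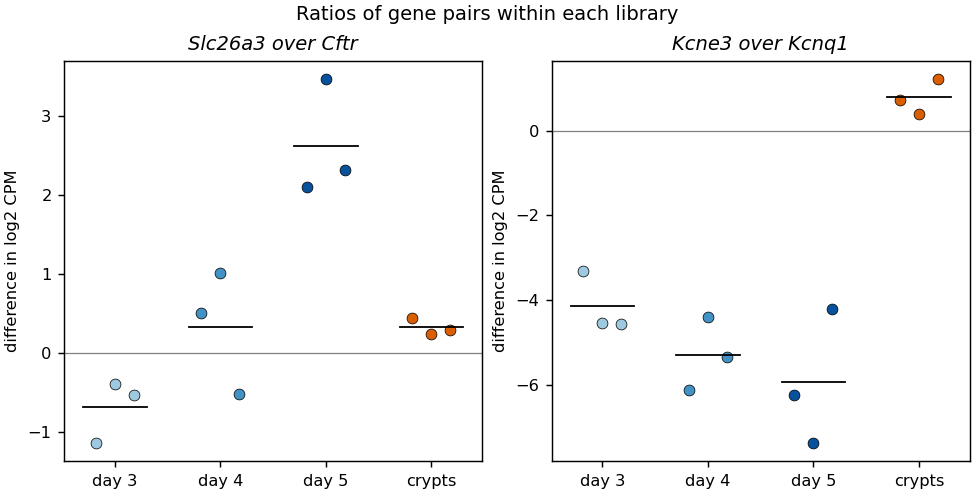
Difference in log2 CPM (prior count 2) between Slc26a3 and Cftr and between Kcne3 and Kcnq1, 1 point per library, with day 3, day 4 and day 5 monolayers left of crypts. The first ratio averages -0.68 at day 3, 0.33 at day 4 and 2.62 at day 5 against 0.33 in crypts; the second is below -3 in all monolayers and above 0 in all crypts.

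Levels of different genes were compared per length of exon, in CPM per kb. In day 3 monolayers the order was Slc12a2 (71.3 ± 1.21), Ano1 (31.8 ± 2.14), Slc4a4 (20.1 ± 1.09), Kcnq1 (12.7 ± 0.735), Clcn2 (4.59 ± 0.165), Cftr (3.37 ± 0.371), Slc26a3 (2.6 ± 0.632) and Kcne3 (1.7 ± 0.963), with Slc26a6 and Best2 below 0.1. At day 3 neighbours overlapped only from Cftr to Kcne3 and between the last pair. On day 4 and day 5 Ano1 and Slc4a4 overlapped (25.8 ± 2.95 and 25.3 ± 2.57 at day 4, 24.3 ± 1.96 and 25.6 ± 2.9 at day 5), and at day 5 Clcn2 (8.48 ± 1.9) and Slc26a3 (7.79 ± 0.643) overlapped well above Cftr (1.07 ± 0.419). The crypts led with Kcne3 (101 ± 30.8), Slc26a3 (68.1 ± 6.07) and Slc12a2 (62.5 ± 2.4), followed by Cftr (44.5 ± 3.57), Clcn2 (30.8 ± 2.69), Kcnq1 (24.7 ± 0.797), Ano1 (23.2 ± 5.27), Slc4a4 (21.3 ± 1.62), Best2 (7.72 ± 2.76) and Slc26a6 (0.213 ± 0.132). In crypts Kcne3 overlapped with Slc26a3, Slc26a3 with Slc12a2, and Ano1 with Clcn2, Kcnq1 and Slc4a4.

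Set against their own sum, Slc12a2 made up 46.1 ± 2.07% of the CPM per kb of the 10 genes in monolayers and 16.4 ± 1.16% in crypts. Kcne3 made up 0.669 ± 0.569% in monolayers and 25.9 ± 5.32% in crypts, Slc26a3 3.17 ± 1.81% and 17.8 ± 0.512%, and Cftr 1.49 ± 0.703% and 11.6 ± 0.704%. The share of Ano1 was 19 ± 2.15% in monolayers and 6.08 ± 1.39% in crypts, and that of Slc4a4 16.6 ± 2.97% and 5.61 ± 0.968%. The shares are descriptions and carry no test.

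**Figure D4:**
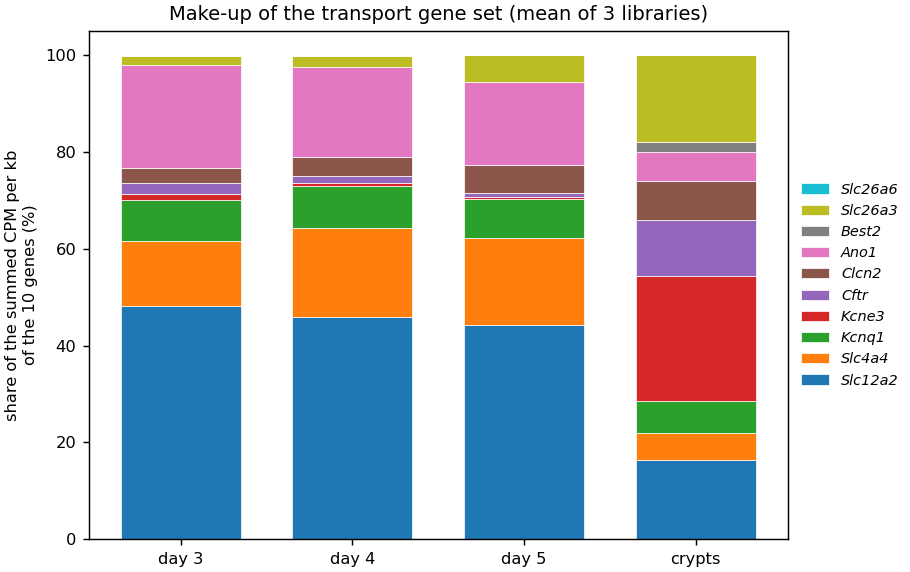
Share of each gene in the summed CPM per kb of the 10 genes, in percent. Each stacked bar is the mean of 3 libraries, with day 3, day 4 and day 5 monolayers left of crypts. Slc12a2, Ano1 and Slc4a4 fill most of each monolayer bar (46.1, 19 and 16.6% on average), whereas Kcne3, Slc26a3 and Cftr take 25.9, 17.8 and 11.6% in crypts.

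The profiles nearest to Cftr and Slc26a3 were sought among the 8797 genes with a mean of at least 10 CPM, by the root mean square difference of centred log2 CPM over the 12 libraries. For Cftr these were Casc4, a Golgi membrane protein gene (0.315), Pdia5, a protein disulfide isomerase of the endoplasmic reticulum (0.425), and Zan, the zonadhesin gene (0.463), against a median distance of 2.12. Casc4 stood at 6.43 ± 1.44 CPM at day 3, 5.06 ± 1.11 CPM at day 4, 2.78 ± 1.44 CPM at day 5 and 95.8 ± 12.3 CPM in crypts. For Slc26a3 they were Krt20, a keratin of surface cells (0.324), Mep1a, a brush border protease (0.349), and Adh1, an alcohol dehydrogenase (0.351), against a median of 1.95. Krt20 stood at 41.3 ± 6.2 CPM at day 3, 62.7 ± 19.6 CPM at day 4, 175 ± 18.3 CPM at day 5 and 1270 ± 342 CPM in crypts. All of these profiles share the step between monolayers and crypts, and the likeness is a description over these 12 libraries.

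Other genes of the same transport systems were counted in 5 lists. Over all genes tested 32.8% were called lower and 30.7% higher. Intervals and bounds of pooled ratios in these lists hold counting error alone. In the SLC26 and SLC4 families, 3 of 8 tested genes were lower, 3 higher and 2 not called (median 0.83). Slc4a11, an SLC4 member that carries protons rather than bicarbonate, was at 55.7 ± 9.45 CPM in monolayers and 0.174 ± 0.301 CPM in crypts, higher by a ratio of 340 (133 to 1250), with all 4 crypt reads in replicate 2. Its fitted change of 8.24 was 12.05 without that library. Slc26a9, a chloride transporter of stomach and airway, was at 2.62 ± 2.86 CPM in monolayers and without a count in crypts, so at least 16.7-fold higher. The chloride-bicarbonate exchanger gene Slc4a3 was higher (3.87 ± 0.52, edgeR adjusted p = 3.15e-06, 6.66 without crypts replicate 3), and both the sulfate transporter gene Slc26a2 (-1.80 ± 0.09, edgeR adjusted p = 5.36e-12) and Slc4a7, the electroneutral sodium-bicarbonate cotransporter (-0.34 ± 0.08, edgeR adjusted p = 0.000988), were lower. Slc26a2 stood at 109 ± 27.5 CPM in monolayers and 375 ± 44.7 CPM in crypts.

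In the anoctamin, bestrophin, ClC and LRRC8 families, 5 of 17 tested genes were lower, 8 higher and 4 not called (median 0.29). Ano7 had 0.0892 ± 0.147 CPM in monolayers and 89.9 ± 17.2 CPM in crypts, lower by a ratio of 1110 (540 to 2780). Ano9 was lower (-1.82 ± 0.10, edgeR adjusted p = 1.01e-11), and the lipid scramblase gene Ano6 was higher (1.76 ± 0.14, edgeR adjusted p = 1.77e-09). Lrrc8c, a subunit of the volume-regulated anion channel, was at 10.3 ± 3.89 CPM in monolayers and 1.57 ± 0.452 CPM in crypts (2.57 ± 0.34, edgeR adjusted p = 2.66e-06). Clcn3, an endosomal chloride-proton exchanger, was called higher (0.25 ± 0.10, edgeR adjusted p = 0.0323) but not in DESeq2 (0.22, adjusted p = 0.0542), with library totals (0.07, edgeR adjusted p = 0.511) or without crypts replicate 1 (0.12, edgeR adjusted p = 0.259). Anoctamin genes were called in both directions.

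In the list of SLC12 cotransporters and their kinases, 6 of 11 tested genes were lower, 4 higher and 1 not called (median -0.74). Slc12a8 had 0.25 ± 0.332 CPM in monolayers and 108 ± 13.3 CPM in crypts, with a pooled level lower by a ratio of 371 (252 to 569). Its monolayer reads were 23 at day 3, 0 at day 4 and 3 at day 5. The fitted fold, which averages the log2 changes of the days, was 996 and lay outside that interval. Slc12a4, the potassium-chloride cotransporter KCC1, had 4.89 ± 1.55 CPM in monolayers and no count in crypts, at least 38.9-fold higher. Among the WNK kinases, which set the activity of these cotransporters through phosphorylation relays, Wnk1 was higher (1.35 ± 0.07, edgeR adjusted p = 5.21e-12), and Wnk4 (-3.26 ± 0.16, edgeR adjusted p = 2.38e-12) and Wnk2 (-2.25 ± 0.22, edgeR adjusted p = 4.46e-08) were lower. Wnk1 was also the most abundant gene of the list, at 611 ± 27.4 CPM in monolayers and 240 ± 12.8 CPM in crypts.

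Of the potassium channels and pumps, 10 of 15 tested genes were lower, 2 higher and 3 not called (median -1.26). Kcnma1, the large-conductance channel of luminal potassium secretion, was at 1.23 ± 0.591 CPM in monolayers and 45 ± 9.74 CPM in crypts (-5.22 ± 0.27, edgeR adjusted p = 4.84e-12). The background potassium channel genes Kcnk5 (-3.64 ± 0.22, edgeR adjusted p = 5.45e-11) and Kcnk6 (-2.39 ± 0.13, edgeR adjusted p = 7.8e-12) were lower too. Kcnh2, the ERG channel gene, had a pooled level 9.88 times lower (7 to 14.1), and its fitted change of -3.84 was -5.05 without day 5 replicate 3.

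Among secretagogue receptors and the cAMP and calcium relay, 22 of 35 tested genes were lower, 10 higher and 3 not called (median -0.86). Chrm1, a muscarinic acetylcholine receptor, had a pooled level 742 times lower (204 to 6150), and Sstr1, a somatostatin receptor, 453 times lower (124 to 3760), each with 2 reads in all monolayers. For the serotonin receptor gene Htr4 the ratio was 247 (119 to 619), and for Vipr2, a receptor for vasoactive intestinal peptide, 134 (56.2 to 417), both lower in monolayers. Fitted changes of genes with so few reads moved when the library holding them was left out. Ezr, ezrin, which ties channels and receptors to the apical cytoskeleton, was the most abundant gene of the list at 2270 ± 106 CPM in monolayers and 1080 ± 50.3 CPM in crypts (1.07 ± 0.07, edgeR adjusted p = 8.51e-11). Over all genes 63.5% were called (32.8% lower and 30.7% higher) and the median was -0.026. The same shares are the background of the marker counts, and no list was tested as a set. Placing genes without a count in a group at their bound left all 5 medians as given. Markers of several other cell types were also lower in monolayers: those of enteroendocrine cells summed to 21.4 to 41.9 CPM in monolayers and 483 to 1160 CPM in crypts (4 of 4 lower), and those of smooth muscle and fibroblasts to 0.561 to 5.04 CPM in monolayers and 8.03 to 74.9 CPM in crypts (3 of 4 tested lower, with Dcn at 0 in all monolayers and Actg2, Acta2 and Cnn1 at 0 in all crypts). Tuft cell markers summed to 3.77 to 12.4 CPM in monolayers and 24.1 to 47.7 CPM in crypts (3 of 4 lower), and endothelial markers to 0.538 to 4.02 CPM in monolayers and 3.34 to 5.48 CPM in crypts (1 of 2 tested lower). Leukocyte markers summed to 20.6 to 45.5 CPM in monolayers and 13.3 to 28.3 CPM in crypts, with Cd68 higher, Ptprc and Cd3e lower, and those of neurons and glia to 2.77 to 6.73 CPM in monolayers and 2.22 to 3.2 CPM in crypts, with neither of the tested pair called (Sox10 at 0 in all monolayers and all crypts, Elavl4 at 0 in all monolayers and S100b at 0 in all crypts). The part of these cells in the results was not tested. The 7 epithelial markers, with Cdh1, Epcam and keratins among them, summed to 10900 to 14700 CPM in monolayers and 9150 to 10400 CPM in crypts, with 3 lower and 3 higher.

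**Figure D5:**
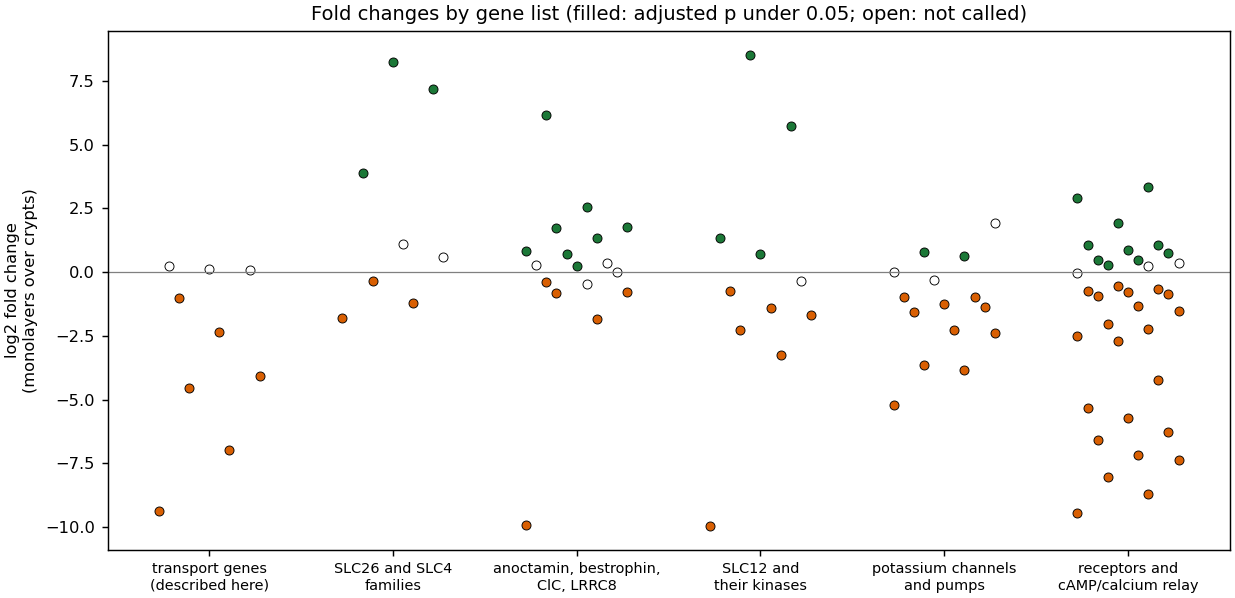
Log2 fold change of monolayers over crypts for every tested gene of the 10 and of the 5 further lists, with filled points for genes called at an adjusted p under 0.05. Genes with few or no reads in a group lie at extreme values that depend on the prior count, and the potassium channel and receptor lists lie mostly below 0 (medians -1.26 and -0.86).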

How the data were processed

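Whole-monolayer or crypt RNA was sequenced in 12 libraries, 4 groups of 3, grouped by the sample labels. The values are read counts per gene as the authors deposited them, whole numbers without normalization, 1 table per library. The submitters' processing notes name CASAVA 1.9, TopHat2 and HTSeq, with builds mm9 and mm10 and no role for either, so gene positions and lengths come from GENCODE M21 and RefSeq promoters from GRCm38.p6. The 5 summary lines of the counter name no gene and were left out, and 31.7 to 43.5% of all reads lay in genes.

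All 12 libraries entered 1 fit with the group as its term in edgeR 4.0.16 (R 4.3.3): filterByExpr with a minimum count of 10, TMM factors (0.91 to 1.12), the quasi-likelihood test, and Benjamini-Hochberg adjustment over 12863 genes. Each gene has 1 estimate of spread, to which crypts contribute even where only days are compared. Ratios of genes used log2 CPM with a prior count of 2. Pooled ratios carry exact 95% intervals, which hold counting error and not the spread between libraries. DESeq2 1.42.0, library totals, no filter, smaller fits, a replicate block and leaving out each library were alternatives. The edgeR step was tested on simulated data. Replicates of a group differed beyond sampling noise (chi-square per degree of freedom 5.58 to 27.7), so none was counted as a duplicate.

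All 10 genes are named. From each further list, up to 4 called genes with a mean of at least 1 CPM and the largest changes are named, plus its most abundant gene. The genes, lists and markers were chosen with earlier results of these data known. Surface colonocyte markers were summed without Slc26a3. Some genes of the lists are not reported here by name.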

Additional observations from a re-analysis of the deposited data

Results flagged for a closer look

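The change over crypts differed between monolayer days for 5 genes, by edgeR's test of the days themselves. Cftr was lower at day 4 than at day 3 (-0.77, adjusted p = 0.036), at day 5 than at day 3 (-1.75, adjusted p = 1.4e-05) and at day 5 than at day 4 (-0.99, adjusted p = 0.0118). Slc26a3 was higher at day 5 than at day 3 (1.58, adjusted p = 8.55e-06) and than at day 4 (1.30, adjusted p = 0.000237). Clcn2 was higher at day 5 than at day 3 (0.89, adjusted p = 0.000147) and than at day 4 (0.60, adjusted p = 0.0115). Slc4a4 was higher (0.35, adjusted p = 0.0192) and Ano1 lower (-0.39, adjusted p = 0.0404) at day 5 than at day 3. Of all genes tested, 20.4% were called at day 5 against day 3. The share was 7.56% at day 5 against day 4 and 2.77% at day 4 against day 3. Some fits with 1 library left out lost the Slc4a4 call, the Ano1 call and the Cftr call at day 4 against day 3. Other such fits lost the Cftr and Clcn2 calls at day 5 against day 4. Values are log2 fold changes with n = 3 libraries per day. No library was tested as an outlier, since every group has 3 libraries.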

How the results depend on the processing

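All 6 genes called lower in monolayers kept their direction and call under each alternative run, against all days and each day. Library totals in place of TMM moved the median of all genes by -0.18 (log2), and turned values near 0 that were not called: Slc4a4 -0.04 and Slc12a2 -0.11 over all days, Ano1 -0.01 and Slc12a2 -0.15 at day 4, Ano1 -0.13 and Slc12a2 -0.19 at day 5, and Slc4a4 -0.02 for day 5 against day 4. DESeq2 gave Slc12a2 -0.01 at day 4 and -0.02 at day 5. The cause was not tested. For day 4 against day 3, 1 of the genes was called, but 2 in DESeq2, 3 without the filter and 3 with only those days in the fit. There, all genes called numbered 356, but 603 in DESeq2, 636 without the filter and 1144 with only those days. A prior count of 0.5 took the Slc26a3 to Slc26a6 difference to -2.38 (adjusted p = 0.0886).

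With 1 library left out, the genes called ranged from 0 to 1 for day 4 against day 3 and from 3 to 6 for day 5 against day 3, and all genes called from 94 to 212 in 5 fits of the first pair and from 536 to 585 in 3 fits of day 5 against day 4 (main count 972). The ratio differences ranged from -3.36 to -2.54 (Slc26a3 to Slc26a6) and from -6.12 to -5.61 (Kcne3 to Kcnq1), with an adjusted p of 0.0545 without crypts replicate 1 or 3, where fewer splits remain. Values near 0 ranged across it for Slc12a2 at day 4 (-0.03 to 0.09) and day 5 (-0.02 to 0.05) and Ano1 at day 5 (-0.03 to 0.27) against crypts. For day 5 against day 4 this was so for Slc4a4 (-0.07 to 0.09) and Slc12a2 (-0.07 to 0.05). Kcne3 at day 5 against day 4 was unstable (-0.72 ± 0.84, from -2.65 to 0.15 with 1 library left out). Of its 16 day 5 reads, 13 were in replicate 3.

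The replicate numbers did not pair the libraries: of 18 same-number pairs 0 correlated above 0.1 (r between -0.0336 and 0.0585). A replicate block removed the calls of Slc12a2 at day 3 against crypts (0.19, adjusted p = 0.0554) and of Ano1 at day 5 against day 3 (-0.39, adjusted p = 0.0555), changed no other call of the 10 genes, and over all genes called 7996 between monolayers and crypts where the fit without it called 8163. Few reads limit Best2, Kcne3 and Slc26a6 in monolayers.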

Other observations

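Some genes of the 5 further lists that were called between monolayer days are given here; they were picked after their values were seen and were not refitted under the alternatives. Atp1b1, a β-subunit of the sodium pump, was higher at day 5 than at day 3. It stood at 416 ± 3.81 CPM at day 3, 633 ± 90.8 CPM at day 4, 1180 ± 124 CPM at day 5 and 1340 ± 86 CPM in crypts (day 5 against day 3, 1.51 ± 0.10, edgeR adjusted p = 1.42e-08). Kcnn4, the calcium-activated potassium channel of the basolateral membrane, fell on each day, at 34.3 ± 1.33 CPM at day 3, 21.8 ± 3.15 CPM at day 4, 12.6 ± 2.92 CPM at day 5 and 53.9 ± 6.58 CPM in crypts (-1.46 ± 0.18, edgeR adjusted p = 1.17e-05). Of the 15 potassium channels and pumps tested, 2 were lower and 3 higher at day 5 than at day 3.

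Among receptors, Ptger4, a prostaglandin E2 receptor that raises cAMP, was at 15.5 ± 0.617 CPM at day 3, 19.9 ± 4.8 CPM at day 4, 37.2 ± 2.06 CPM at day 5 and 33.3 ± 6.2 CPM in crypts (1.27 ± 0.19, edgeR adjusted p = 8.81e-05 for day 5 against day 3). Vipr1, a receptor for vasoactive intestinal peptide, was at 59.6 ± 4.55 CPM at day 5 and 40.9 ± 5.98 CPM at day 3, with 294 ± 8.67 CPM in crypts (0.55 ± 0.12, edgeR adjusted p = 0.00244). Of the 35 receptor and relay genes tested, 1 was lower and 5 higher at day 5 than at day 3. Of the 8 SLC26 and SLC4 genes tested, 2 were lower and 3 higher at day 5 than at day 3. Slc26a9 had the largest change of these, at 5.52 ± 3.48 CPM at day 5 and 0.766 ± 0.156 CPM at day 3 (2.81 ± 0.74, edgeR adjusted p = 0.0122). The anion exchanger gene Slc4a2 (0.46 ± 0.10, edgeR adjusted p = 0.00271) and the sulfate transporter gene Slc26a2 (0.64 ± 0.13, edgeR adjusted p = 0.00111) were higher too. Slc4a7 (-0.85 ± 0.10, edgeR adjusted p = 5.98e-06) and Slc4a11 (-0.52 ± 0.18, edgeR adjusted p = 0.0454) were lower. In the anoctamin, bestrophin, ClC and LRRC8 list 3 of 17 were lower and 2 higher, and among the SLC12 cotransporters and their kinases 2 of 11 were lower and 3 higher. Over all genes 10.5% were lower and 9.9% higher in that comparison.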
